A study of Homo sapiens with 9 samples.

Results

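The comparison described here set the average effect of both siRNAs against LRWD1, called siLRWD1-5 and siLRWD1-6, against a scrambled siRNA in A673 cells. It used 9 of the 9 libraries of the series: 3 with scrambled siRNA, 3 with siLRWD1-5 and 3 with siLRWD1-6. The 3 groups entered a single fit, in which each siRNA carried the same weight and the mean of both was compared with scrambled. A673 is an established Ewing sarcoma line driven by EWS-FLI1, a chimaera that joins EWSR1 to FLI1, an ETS family transcription factor. All cells, controls included, were grown with Zeocin and blasticidin S in serum approved for Tet-regulated systems, received 13 nM siRNA with siLentFect by reverse transfection, and were lysed 48 h later in independent experiments. The study used the siRNAs after a viability screen, and the question was which transcripts changed when LRWD1 was depleted. With a pair of reagents aimed at the same mRNA, genes that moved alike with each can be kept apart from genes that a single reagent moved.

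LRWD1, also called ORCA, is a protein with leucine-rich and WD repeats that binds the origin recognition complex, the assembly that marks where DNA replication can begin. It helps hold that complex on chromatin and is known for its place at heterochromatin and centromeres. An siRNA is a short duplex whose guide strand is loaded into an Argonaute protein and directs cleavage of a matching mRNA. Bases 2 to 8 of a guide strand, its seed, can also pair with 3' UTRs of other mRNAs and lower them in the manner of a miRNA. The siRNA sequences were not used here.

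Counted reads per library ranged from 11971179 to 15674452. Levels are given as CPM, the count of a gene relative to the library total after TMM scaling, and a gene is called higher or lower when its edgeR adjusted p is under 0.05. Scrambled replicate 2 stood apart from the other scrambled libraries, with a chi-square per gene of 29.57 and 24.99, whereas every other pair within a group lay between 3.03 and 5.68. Its 47 mitosis genes were all lower than the mean of scrambled replicates 1 and 3, with a median log2 difference of -0.74. Counts for gene lists are therefore given below also without this library where it moves them most, and without other single libraries for the main cases. Of 10 Ewing sarcoma markers, 9 were between 19.48 and 2827 CPM in every library. CD99, the surface protein used to diagnose the tumour, had at most 50 counts, and its pseudoautosomal neighbours SLC25A6 and ASMTL had at most 3. The neighbours DHRSX, ZBED1, GTPBP6, PPP2R3B and AKAP17A had 0 in every library. Whether the counts of this region reflect expression was not tested. Summed markers of other cell types were 46.43 to 64.75 CPM in scrambled libraries, 55.19 to 60.16 with siLRWD1-5 and 41.82 to 43.9 with siLRWD1-6, of which CD68 alone gave 26.84 to 46.19. PTPRC, CD3E, KRT5, KRT14 and ALB had at most 1 count in any library. Other members of that list were detected throughout: SNAP25 at 4.87 to 7.2 CPM, KDR at 1.78 to 8.27 and PDGFRA at 0.95 to 3.49.

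LRWD1 itself was at 49.1, 54.6 and 49.3 CPM in the scrambled libraries, at 10.6, 11.3 and 10.4 with siLRWD1-5, and at 6.55, 8.11 and 8.55 with siLRWD1-6. Every siRNA library was below every scrambled library, and the groups treated with siRNA did not overlap each other. The pooled log2 fold change was -2.48 (SE 0.08, adjusted p = 3.1e-08 by edgeR), a level 5.59-fold lower. The decrease was 4.73-fold with siLRWD1-5 and 6.61-fold with siLRWD1-6, and the difference between the siRNAs passed the test (log2 -0.48, adjusted p = 0.0058). In these bulk libraries, fewer cells with a transcript and less of it per cell cannot be told apart.

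Averaged over both siRNAs, 1500 genes were higher and 1913 lower than with scrambled siRNA, which is 11.0% and 14.0% of the 13648 genes tested. A change of 2-fold or more was seen in 109 of the higher and 78 of the lower genes. Each siRNA taken alone gave unequal counts. With siLRWD1-5, 18.5% of genes were higher and 20.3% lower, against 8.81% and 7.78% with siLRWD1-6, and 43.4% differed between the siRNAs. Both comparisons use the same 3 scrambled libraries, so a departure of those libraries enters each of them. Without scrambled replicate 2, the pooled comparison called 2352 genes higher and 2660 lower. When the 6 siRNA libraries were instead fitted as 1 group, so that differences between the siRNAs counted as spread, 235 genes were higher and 125 lower.

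Of the 3413 pooled calls, 24.0% moved the same way with each siRNA. These are 548 genes called alike, for which each siRNA passed the test and the siRNAs did not differ by it, and 271 that moved the same way by unequal amounts. A larger share, 54.6%, was driven by one siRNA. There, 1528 genes (44.8% of the pooled calls) passed the test with siLRWD1-5 only and differed between the siRNAs, and 337 genes (9.87%) did so with siLRWD1-6 only. For 672 genes the data did not resolve the class, and 466 of these passed with siLRWD1-5 alone without a difference between the siRNAs. The remaining 57 pooled calls moved in opposite directions with the siRNAs. Among all genes tested, alike and higher made up 2.54%, alike and lower 1.48%, unequal 1.99%, driven by siLRWD1-5 11.2%, driven by siLRWD1-6 2.47% and opposed 2.83%. Of the 187 pooled changes of 2-fold or more, 20 higher and 13 lower genes were alike, while 53 higher and 36 lower genes were driven by siLRWD1-5.

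**Figure D1:**
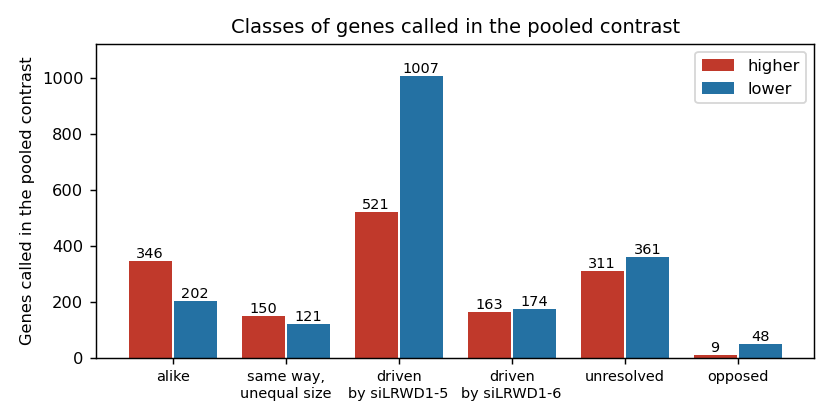
Number of genes called in the pooled contrast (vertical axis) in each class, split into higher (red) and lower (blue) than scrambled. The largest bar is the 1007 genes lower through siLRWD1-5, while 346 genes were alike and higher and 202 alike and lower.

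**Figure D2:**
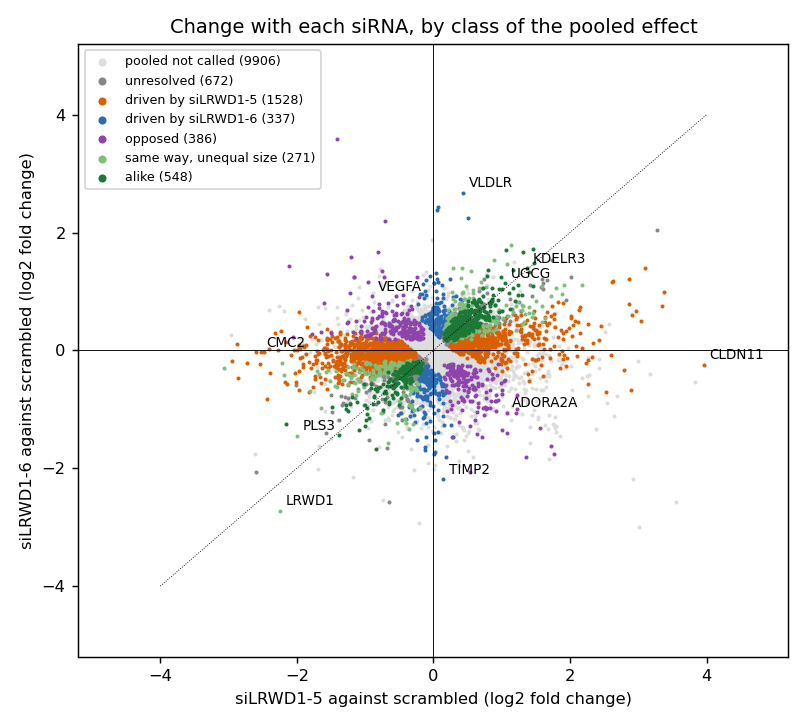
Each of the 13648 tested genes by its log2 fold change with siLRWD1-5 (horizontal axis) and with siLRWD1-6 (vertical axis), coloured by class. The axes share the scrambled libraries; genes driven by siLRWD1-5 spread along the horizontal axis, and genes that moved alike lie near the dotted line of equal change.

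Classes depended on which libraries entered the fit. Of the 548 alike genes, 544 were still called in the pooled contrast without scrambled replicate 2, and 438 were still alike, whereas 87 became unequal. In that fit the alike class grew to 566 higher and 408 lower genes. Leaving out siLRWD1-6 replicate 1 instead gave 230 and 108. A change of the alike class was modest in most members: the median pooled log2 fold change was 0.44 in the higher and -0.4 in the lower genes. The 6 siRNA libraries did not overlap the scrambled ones in 337 of 346 alike higher genes and in 201 of 202 alike lower genes, against 12.8% of all genes tested. Non-overlap goes along with being called with each siRNA and is not independent of it.

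The 12 alike increases named here ranged from 1.87-fold to 2.62-fold. KDELR3, a receptor that returns escaped chaperones from the Golgi to the endoplasmic reticulum (ER), was at 12.5, 7.86 and 12.5 CPM in the scrambled libraries, at 30.5, 25.9 and 29.5 with siLRWD1-5, and at 32.3, 25.6 and 29.2 with siLRWD1-6. The siRNA groups lay over each other and above all scrambled libraries. Its pooled increase was 2.62-fold (log2 1.39, SE 0.15, adjusted p = 8e-05 by edgeR), made of 2.6-fold with siLRWD1-5 and 2.63-fold with siLRWD1-6. ECE2, a membrane protease of the endothelin-converting family, was at 6.63, 7.94 and 6.94 CPM with scrambled siRNA, at 20.9, 17.2 and 18.2 with siLRWD1-5 and at 18.5, 18.8 and 16.5 with siLRWD1-6. All 6 siRNA libraries stood above the scrambled ones, with a pooled change of 2.56-fold (log2 1.36, SE 0.11, adjusted p = 1.2e-05). UGCG, which makes glucosylceramide and so starts glycosphingolipid synthesis, was at 56.5, 77.0 and 63.1 CPM with scrambled siRNA, at 128, 148 and 131 with siLRWD1-5 and at 135, 150 and 148 with siLRWD1-6. The pooled rise was 2.14-fold (SE 0.1 on the log2 scale, adjusted p = 2.1e-05), and the siRNA groups overlapped each other. MFSD2A, a transporter of lysophospholipids that carry omega-3 fatty acids, rose 2.41-fold.

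TGFB2, a ligand of the TGF-beta family, was at 32.7, 27.6 and 35.6 CPM with scrambled siRNA, at 68.7, 75.0 and 46.9 with siLRWD1-5 and at 76.4, 70.6 and 81.4 with siLRWD1-6. The lowest siRNA library, siLRWD1-5 replicate 3, was still above the scrambled range, and the pooled increase was 2.17-fold (adjusted p = 0.0005). ITGB8, an integrin subunit that releases TGF-beta from its latent complex, rose 2.13-fold, and the Wnt ligand WNT5B rose 2.01-fold. NEDD4, a ubiquitin ligase, was at 26.0, 56.6 and 32.7 CPM with scrambled siRNA, at 60.4, 70.7 and 69.2 with siLRWD1-5 and at 94.1, 104 and 96.5 with siLRWD1-6. Scrambled replicate 2 lay close to the siLRWD1-5 libraries here, and siLRWD1-6 lay above siLRWD1-5 without passing the test of the difference (adjusted p = 0.083). FAM73A, a protein of the mitochondrial outer membrane, rose 2.16-fold from 28.1, 52.8 and 33.2 CPM, and SSU72, a phosphatase of the RNA polymerase II tail, rose 2.04-fold from 37.8, 61.1 and 39.4 CPM. In both, scrambled replicate 2 was the highest control. The other alike increases named by the rule were MAGEH1 (2.25-fold) and the kinase gene BMP2K (1.87-fold).

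The named alike decreases were up to 2.2-fold. GAP43, a protein of axonal growth cones, was at 16.0, 10.2 and 13.2 CPM with scrambled siRNA, at 6.49, 6.89 and 6.33 with siLRWD1-5 and at 5.92, 5.99 and 4.32 with siLRWD1-6. Both siRNA groups were below the controls, and the pooled level was 2.2-fold lower (log2 -1.14, SE 0.15, adjusted p = 0.00028 by edgeR). CACNA1G, a T-type calcium channel, was 2.12-fold lower and RGS4, which shortens G protein signals, was 1.94-fold lower. PKIA, an inhibitor of protein kinase A, was 2.15-fold lower, although its scrambled libraries were at 14.3, 26.7 and 15.9 CPM and so differed most in replicate 2. The synaptic adhesion gene LRRC4 was 1.74-fold lower.

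The alike decreases of RAB31, RNF114 and SEPT9 were in more abundant genes and had small standard errors. RAB31, a GTPase of vesicle traffic, was at 93.5, 91.2 and 90.7 CPM with scrambled siRNA, at 49.0, 52.0 and 49.7 with siLRWD1-5 and at 51.8, 52.0 and 56.7 with siLRWD1-6. Within each group the libraries differed little, and the decrease was 1.77-fold (log2 -0.82, SE 0.05, adjusted p = 3.6e-06 by edgeR). RNF114, a ubiquitin ligase, went from 128, 145 and 126 CPM to 76.4, 77.4 and 72.6 with siLRWD1-5 and 71.8, 74.1 and 70.6 with siLRWD1-6. The siRNA groups overlapped, and the pooled decrease was 1.8-fold (SE 0.06, adjusted p = 5.2e-06). SEPT9, a septin of the cytoskeleton, was at 435, 331 and 415 CPM with scrambled siRNA and at 201 to 230 in all 6 siRNA libraries. The plasma carboxypeptidase gene CPB2 (1.99-fold), the lipase gene LIPH (1.84-fold) and the reductase gene CYB5RL (1.78-fold) were also in the alike class. Their means over all libraries were low, at 6.84, 6.44 and 6.04 CPM. CPB2 fell 2.28-fold with siLRWD1-5 and 1.74-fold with siLRWD1-6, without a called difference (adjusted p = 0.075 by edgeR).

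**Figure D3:**
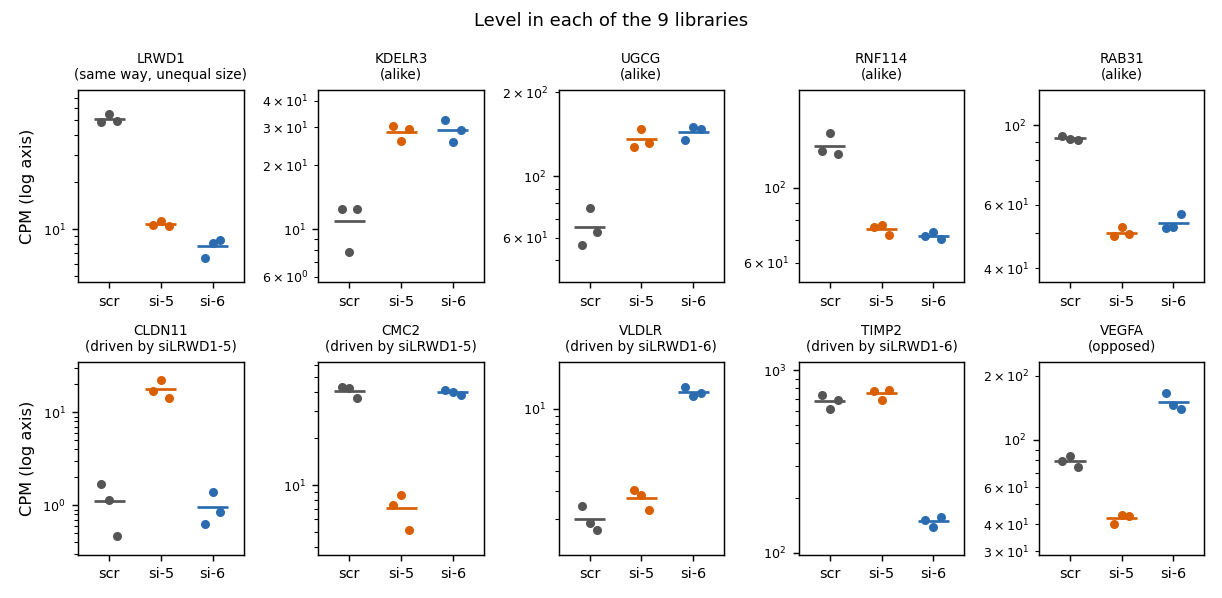
Level of 10 genes in each of the 9 libraries, in TMM-scaled CPM on a log axis; points are libraries, bars are group means (scr, scrambled; si-5 and si-6, the siRNAs). In the panels of KDELR3, UGCG, RNF114 and RAB31 both siRNA groups sit together apart from scrambled, whereas CLDN11, CMC2, VLDLR and TIMP2 moved with a single siRNA and VEGFA moved in opposite directions.

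Some genes with large pooled changes moved the same way with each siRNA but by unequal amounts. PLS3, an actin-bundling plastin, was at 214, 246 and 216 CPM with scrambled siRNA, at 54.5, 56.8 and 57.3 with siLRWD1-5 and at 80.1, 86.3 and 81.6 with siLRWD1-6. The 3 groups did not overlap, the pooled decrease was 3.3-fold (adjusted p = 3.1e-08 by edgeR), and the siRNAs differed by log2 0.56 (adjusted p = 7.8e-05). DLX2, a homeobox factor, was 1.93-fold lower on average, the peptide gene UTS2 2.49-fold lower and NCKAP1L, a subunit of the WAVE actin complex, 1.89-fold lower. NCKAP1L was the one of these in which siLRWD1-6 gave the larger decrease. Among the increases, EFNA1, the ligand ephrin-A1, went from 10.3, 8.43 and 8.33 CPM to 35.9, 47.5 and 39.4 with siLRWD1-5 and to 15.4, 22.4 and 21.3 with siLRWD1-6. The selenoprotein gene SELM (2.86-fold) and DRAM1, a lysosomal membrane protein linked to autophagy (2.54-fold), also rose more with siLRWD1-5. PDCD4, an inhibitor of translation initiation (2.42-fold), and MATN2, a matrix protein (2.75-fold), rose more with siLRWD1-6. In all, 170 of the 271 unequal genes had the larger change with siLRWD1-5.

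Genes driven by siLRWD1-5 made up 53 of the 109 pooled increases of 2-fold or more, and with siLRWD1-6 their level often overlapped scrambled. CLDN11, a tight junction protein, was at 1.71, 1.14 and 0.463 CPM with scrambled siRNA, at 16.8, 22.1 and 14.3 with siLRWD1-5 and at 0.627, 1.39 and 0.847 with siLRWD1-6. Only the siLRWD1-5 libraries were high, and the pooled value of 3.62-fold stands for 15.5-fold with siLRWD1-5 and a level 1.19-fold lower with siLRWD1-6 that did not pass the test (adjusted p = 0.77 by edgeR). DSP, the desmosomal protein desmoplakin, was at 4.74, 6.89 and 5.25 CPM with scrambled siRNA, at 28.9, 29.6 and 31.5 with siLRWD1-5 and at 5.5, 6.65 and 6.77 with siLRWD1-6. Here too siLRWD1-6 overlapped the controls. F11R, a junctional adhesion molecule, rose 6.06-fold with siLRWD1-5 and was 1.06-fold lower with siLRWD1-6 (adjusted p = 0.86), so that the pooled value of 2.39-fold describes neither siRNA. PTX3, a secreted pentraxin of innate immunity, was at 41.2, 144 and 45.2 CPM with scrambled siRNA, at 447, 648 and 578 with siLRWD1-5 and at 125, 227 and 180 with siLRWD1-6. Scrambled replicate 2 was above siLRWD1-6 replicate 1. The change with siLRWD1-6 was 2.31-fold and did not pass (adjusted p = 0.13). TNFAIP2, an NF-kB target (3.38-fold pooled), and ACSS1, the mitochondrial acetyl-CoA synthetase (2.65-fold pooled), completed the named increases. All ACSS1 libraries with siLRWD1-6 were also above the controls, by 1.61-fold, without passing the test (adjusted p = 0.065 by edgeR).

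Decreases driven by siLRWD1-5 were the most numerous class, with 1007 genes and medians of -0.72 with siLRWD1-5 and -0.07 with siLRWD1-6. CMC2, a mitochondrial protein needed for cytochrome c oxidase, was at 43.2, 42.5 and 36.6 CPM with scrambled siRNA, at 7.37, 8.67 and 5.12 with siLRWD1-5 and at 41.2, 40.2 and 37.9 with siLRWD1-6. GGCT, gamma-glutamylcyclotransferase of glutathione turnover, was at 82.6, 49.6 and 86.7 CPM with scrambled siRNA, at 14.7, 12.2 and 12.3 with siLRWD1-5 and at 74.2, 68.7 and 73.0 with siLRWD1-6. In both genes the siLRWD1-6 libraries overlapped the controls, while siLRWD1-5 gave decreases of 5.74-fold and 5.57-fold. NGFR, the low-affinity neurotrophin receptor, fell 5.79-fold with siLRWD1-5 and was 1.17-fold lower with siLRWD1-6 (adjusted p = 0.43). ARL6IP6 fell 5.24-fold with siLRWD1-5 and LOXHD1 3.53-fold. LOXHD1 was also lower with siLRWD1-6, at log2 -0.71, just short of the threshold (adjusted p = 0.057 by edgeR). FAM45B fell 7.32-fold, but its near-identical copy FAM45A makes the assignment of its reads uncertain.

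**Figure D4:**
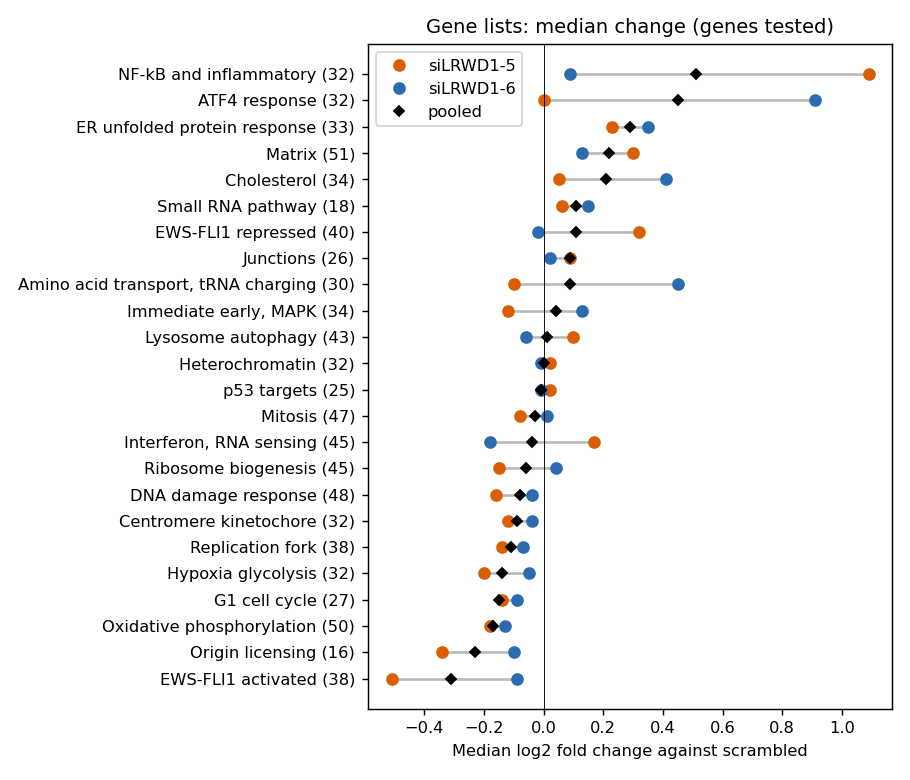
Median log2 fold change against scrambled of 24 gene lists (number of tested genes in brackets) with siLRWD1-5 (orange), siLRWD1-6 (blue) and pooled (black). The ER unfolded protein response and oxidative phosphorylation lists have their medians close together, whereas the NF-kB list (1.09 against 0.09) and the ATF4 list (0.0 against 0.91) take theirs from a single siRNA.

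Genes driven by siLRWD1-6 were fewer, with 163 higher and 174 lower. VLDLR, a lipoprotein receptor, was at 2.4, 1.86 and 1.7 CPM with scrambled siRNA, at 3.02, 2.81 and 2.27 with siLRWD1-5 and at 13.8, 12.1 and 12.7 with siLRWD1-6. DDIT4, an inhibitor of mTORC1 signalling, was at 8.28, 10.6 and 5.86 CPM with scrambled siRNA, at 7.56, 9.33 and 9.01 with siLRWD1-5 and at 46.1, 46.2 and 40.4 with siLRWD1-6. In both genes siLRWD1-5 overlapped the controls and siLRWD1-6 stood well above them, by 6.38-fold and 5.37-fold. PCK2, the mitochondrial phosphoenolpyruvate carboxykinase, rose 4.75-fold with siLRWD1-6 (pooled 2.6-fold) and STC2, a secreted stanniocalcin, 2.47-fold (pooled 1.59-fold). With siLRWD1-5 all PCK2 libraries also lay above the controls, by 1.42-fold, without passing the test (adjusted p = 0.086 by edgeR). CSGALNACT2, an enzyme of chondroitin sulfate synthesis, and ZNF43 had pooled increases of 1.55-fold each. The CSGALNACT2 call was lost without scrambled replicate 3 (log2 0.56, adjusted p = 0.061 by edgeR). ZNF43 was above the controls in all siLRWD1-5 libraries too, by 1.34-fold, without passing the test (adjusted p = 0.064 by edgeR).

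Among the decreases driven by siLRWD1-6, TIMP2, an inhibitor of matrix metalloproteinases, was at 735, 617 and 685 CPM with scrambled siRNA, at 774, 693 and 785 with siLRWD1-5 and at 151, 138 and 156 with siLRWD1-6. The siLRWD1-6 libraries were all low, 4.57-fold under the controls (adjusted p = 1.7e-07 by edgeR), and siLRWD1-5 overlapped scrambled. NT5C3L, a nucleotidase gene, was at 50.5, 47.5 and 51.2 CPM with scrambled siRNA, at 50.1, 51.3 and 51.0 with siLRWD1-5 and at 13.9, 15.2 and 16.0 with siLRWD1-6. ANKH, an exporter of pyrophosphate (3.25-fold), WSB2, a substrate adaptor of a ubiquitin ligase (3.5-fold), LSMD1 (3.37-fold) and CDCA7L (3.13-fold) were likewise lower with siLRWD1-6. None of these 6 genes passed the test with siLRWD1-5.

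A pooled mean hides genes that moved in opposite directions. There were 386 of them, 215 higher and 171 lower with siLRWD1-6, of which only 57 were called in the pooled contrast. Without scrambled replicate 2 the number was 685, and without siLRWD1-6 replicate 1 it was 196. VEGFA, the vascular growth factor, was at 79.2, 84.2 and 74.8 CPM with scrambled siRNA, at 40.2, 44.2 and 43.9 with siLRWD1-5 and at 166, 146 and 139 with siLRWD1-6. No library of one group reached another group, yet the pooled log2 fold change was 0.02 (adjusted p = 0.89 by edgeR). DDIT3, the stress transcription factor CHOP, was at 41.3, 56.0 and 39.8 CPM with scrambled siRNA, at 25.8, 26.7 and 26.1 with siLRWD1-5 and at 77.5, 75.3 and 82.7 with siLRWD1-6, again with 3 separate groups and a pooled value of -0.01. NPR3, a clearance receptor for natriuretic peptides, fell 1.76-fold with siLRWD1-5 and rose 3.18-fold with siLRWD1-6. POLR3G, a subunit of RNA polymerase III, fell 3.04-fold and rose 1.74-fold in the same order. The adenosine receptor gene ADORA2A went the other way, with a rise of 2.1-fold with siLRWD1-5 and a fall of 2.08-fold with siLRWD1-6, as did LPPR3, DDN and EPS8L1. A further 2171 genes outside the pooled calls passed with one siRNA and differed between the siRNAs.

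Short words in 3' UTRs were counted for each class, because siRNA guides can act on 3' UTRs. Annotated 3' UTRs of at least 50 bases were found in GENCODE release 29 (GRCh38) for 12526 of the 13648 genes, and the word shown for a class is the one of 16384 possible 7-base words whose share of genes exceeded that of all tested genes by most. The choice rests on these classes, so the shares describe the classes and are no test. CCTGAAA was in 40.9% (389 of 951) of genes lower through siLRWD1-5, against 18.3% of all tested genes, at 0.239 against 0.112 copies per kb. The same word ranked top for genes lower alike with each siRNA, where it was in 27.6%, and it was in 40.5% of opposed genes that were higher with siLRWD1-6. It was in 10.4% of genes lower through siLRWD1-6 and in 10.2% of those higher through siLRWD1-5. GGCCTGG, the top word of genes lower through siLRWD1-6, was in 35.6% of them and in 22.0% of all genes, but also in 30.1% of genes higher through siLRWD1-5 and in 28.7% of opposed genes that were lower with siLRWD1-6. The word ranked next in that class, ACATCGT, was in 14.1% of it against 2.56% of all genes, in 9.65% of unequal lower genes and in 2.4% of genes higher through siLRWD1-5. ATTACAA was in 30.7% (104 of 339) of genes that were higher alike, against 14.1% of all, in 28.9% of genes higher through siLRWD1-6 and in 10.2% of alike lower genes. Alike higher genes had longer 3' UTRs than all genes (median 2038 against 1414 bases), but copies per kb were higher as well (0.158 against 0.086). Among genes chosen by the naming rule, ATTACAA was in 3 of 12 alike increases and CCTGAAA in 5 of 12 alike decreases. Of those with an annotated 3' UTR, CCTGAAA was in 4 of 5 decreases driven by siLRWD1-5. GGCCTGG was in 2 of 5 driven by siLRWD1-6. Sites are shown only for named genes that hold the word, with 10 bases on either side and the word in capitals. The site of NEDD4 opens its 3' UTR. Whether these words have a part in the changes was not tested.
CMC2: tgggttgataCCTGAAAgaatcctgtc
GGCT: tgtatgagggCCTGAAAtatgtgacaa
NGFR: cttgggccctCCTGAAActtacacaca
RNF114: gttcaacagaCCTGAAAatgagccatg
RAB31: aggaaatgtaCCTGAAAaggattttag
TIMP2: gttagggcagGGCCTGGaaatgtgcat
ANKH: aggatggggaGGCCTGGgagctcccag
TGFB2: tcctattgttATTACAAagaggacact
FAM73A: tgtaacatatATTACAAagttaacaga
NEDD4: ATTACAAataacaatct

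With all 9 libraries in the fit, calls among genes that license replication origins, those closest to LRWD1's known role, came mainly from siLRWD1-5. Of 16 genes tested, 7 were lower and 0 higher in the pooled contrast, where 14.0% of all genes were lower. Of the 7, 5 were driven by siLRWD1-5, as were 44.8% of all pooled calls, and none was alike. CDC6, which loads the MCM helicase at origins, was at 98.4, 63.5 and 99.7 CPM with scrambled siRNA, at 48.1, 40.8 and 43.1 with siLRWD1-5 and at 81.0, 77.2 and 87.7 with siLRWD1-6. Scrambled replicate 2 was below the siLRWD1-6 libraries, and only siLRWD1-5 was clear of the controls. ORC2, the subunit of the origin recognition complex that LRWD1 is known to contact, went from 53.5, 50.6 and 49.7 CPM to 33.7, 35.8 and 36.5 with siLRWD1-5 and was at 53.7, 53.5 and 54.5 with siLRWD1-6. The list's median was -0.34 with siLRWD1-5 and -0.1 with siLRWD1-6, and scrambled replicate 2 was itself lower than replicates 1 and 3 in 15 of the 16 genes (median -0.56). Without that library 15 of 16 were lower in the pooled contrast, with medians of -0.5 and -0.24. Of these, 5 were alike, 5 unequal and 4 driven by siLRWD1-5. Without scrambled replicate 1, however, 0 of 16 were lower, without scrambled replicate 3 there were 2, and leaving out single siRNA libraries gave 3 to 5. At an adjusted p under 0.01 none was called.

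Other lists of the cell cycle and chromatin also depended on single control libraries. In the replication fork list, 7 of 38 genes were lower and 1 higher, against 14.0% and 11.0% of all genes. TIPIN, a fork protection factor, was the alike member: it was at 30.2, 26.7 and 27.9 CPM with scrambled siRNA, at 20.2, 18.5 and 18.9 with siLRWD1-5 and at 16.9, 19.3 and 20.1 with siLRWD1-6 (1.49-fold lower, adjusted p = 0.00044 by edgeR). Without scrambled replicate 2, 25 of 38 were lower, and without scrambled replicate 1 or 3 there were 3, as without siLRWD1-5 replicate 2 or any single siLRWD1-6 library. In the mitosis list, 3 of 47 genes were lower, CDC20, MAD2L1 and CDC25B, all driven by siLRWD1-5, and the number became 31 without that library (median -0.22, against -0.03 with it). The centromere and kinetochore list went from 1 to 20 lower of 32, and the DNA damage list from 7 to 27 lower of 48, but to 3 without scrambled replicate 3. In the heterochromatin list, 3 of 32 genes were higher and 3 lower, near the shares of all genes, and without scrambled replicate 2 these were 5 and 12. The lower genes included SETD8, a histone H4 methyltransferase, with a log2 fold change of -1.54 with siLRWD1-5 and -0.10 with siLRWD1-6. Why scrambled replicate 2 differs from the other controls was not tested.

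The unfolded protein response of the ER was, among the 25 lists, the one with the most genes that rose with both siRNAs. Of 33 genes, 22 were higher and 1 lower in the pooled contrast (69.7% called, against 25.0% of all genes). Among them 6 were alike and 8 unequal, where 2.54% of all genes were alike and higher and 1.99% unequal. The medians were 0.23 with siLRWD1-5 and 0.35 with siLRWD1-6 against -0.02 for the pooled median of all genes. Without scrambled replicate 2, 27 were higher, and leaving out other single libraries gave 18 to 20. Without scrambled replicate 1, 5 were alike and 3 unequal. At an adjusted p under 0.01, 18 were higher, with 6 alike and 2 unequal. With the 6 siRNA libraries as 1 group, 8 were higher. EIF2AK3, the kinase PERK that senses misfolded proteins, was at 26.2, 21.6 and 28.1 CPM with scrambled siRNA, at 38.8, 36.7 and 38.4 with siLRWD1-5 and at 52.8, 48.7 and 52.6 with siLRWD1-6. The groups were separate and in that order. HSPA5, the chaperone BiP, was at 1475, 1783 and 1665 CPM with scrambled siRNA, at 1881, 2041 and 2084 with siLRWD1-5 and at 2863, 2901 and 3288 with siLRWD1-6, which is 1.22-fold and 1.84-fold higher. SYVN1, a ubiquitin ligase of ER-associated degradation, and DERL1, PDIA3, PDIA6 and KDELR2 rose alike, by log2 0.59, 0.40, 0.32, 0.38 and 0.21. SEC24D, a coat protein of ER export, rose by 0.63 on the log2 scale. XBP1, the transcription factor of this response, was driven by siLRWD1-6 (log2 0.71 against 0.00). SSR1, a subunit of the translocon-associated complex, was the lower member, at -1.14 with siLRWD1-5 and 0.49 with siLRWD1-6.

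The ATF4 list, target genes of the factor that is translated under amino acid and ER stress, gave a pooled count made largely by siLRWD1-6. Of 32 genes, 23 were higher and 0 lower, where 11.0% of all genes were higher. However, 14 of these were driven by siLRWD1-6, as were 2.47% of all genes. The median was 0.0 with siLRWD1-5 and 0.91 with siLRWD1-6. Without scrambled replicate 2, 26 were higher, and 11 of the 32 were opposed, against 5 with all libraries. At an adjusted p under 0.01, 18 were higher, and with the 6 siRNA libraries as 1 group, 2 were higher. ATF4 itself was at 247, 218 and 242 CPM with scrambled siRNA, at 178, 177 and 162 with siLRWD1-5 and at 478, 454 and 416 with siLRWD1-6. It fell with the first siRNA and rose with the second. CHAC1, which degrades glutathione, was at 6.07, 7.94 and 7.49 CPM with scrambled siRNA, at 3.78, 3.63 and 5.84 with siLRWD1-5 and at 39.1, 31.9 and 27.3 with siLRWD1-6, so the pooled rise of 1.68-fold joins a fall and a 4.6-fold rise. ASNS, asparagine synthetase, rose 1.22-fold and 2.63-fold. PYCR1 and ALDH18A1, enzymes of proline synthesis from glutamate, were the alike members. PYCR1 was at 126, 117 and 117 CPM with scrambled siRNA, at 230, 211 and 207 with siLRWD1-5 and at 217, 206 and 210 with siLRWD1-6, and ALDH18A1 rose 1.39-fold (adjusted p = 4.6e-05 by edgeR). Both siRNA groups overlapped each other in these genes and neither overlapped scrambled. ALDH1L2, a mitochondrial folate enzyme, was a member with a larger rise through siLRWD1-5, with a log2 difference of -0.73 between siLRWD1-6 and siLRWD1-5 (adjusted p = 0.045).

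Amino acid transport and tRNA charging genes were split in the same manner. Of 30 genes, 8 were higher and 5 lower in the pooled contrast, 7 were driven by siLRWD1-6 and 7 were opposed, against 11.0%, 14.0%, 2.47% and 2.83% of all genes. The medians were -0.1 with siLRWD1-5 and 0.45 with siLRWD1-6. Without scrambled replicate 2 the higher genes numbered 14, and leaving out other single libraries gave 7 to 9. They numbered 4 at an adjusted p under 0.01 and 0 with the 6 siRNA libraries as 1 group. SLC7A11, the cystine importer, was at log2 0.01 with siLRWD1-5 and 1.15 with siLRWD1-6, and the tRNA synthetase gene YARS at -1.27 and 0.46. KARS was the single alike member, lower by 0.30 on the log2 scale. CARS, the cysteinyl-tRNA synthetase, was at 62.8, 72.8 and 62.6 CPM with scrambled siRNA, at 65.3, 62.4 and 66.7 with siLRWD1-5 and at 108, 104 and 102 with siLRWD1-6.

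Promoter sequences were searched for the motifs known for these stress responses, in RefSeq windows from 250 bases before to 50 bases after the gene start (GRCh38.p14), which matched 10627 of the 13648 genes. The core of the element bound by ATF4 with C/EBP factors, TGATGNAA on either strand, was in 3.67% of 27305 RefSeq promoters and in 1.72% of those of tested genes. It was in 7.46% (10 of 134) of genes higher through siLRWD1-6 and in 4.6% of opposed genes that were higher with siLRWD1-6, against 1.35% of alike higher genes and 1.46% of genes higher through siLRWD1-5. In the list of amino acid transport and tRNA charging genes, 40.9% (9 of 22) had it, and in the ATF4 list 16.0% (4 of 25). AARS, NARS and SLC3A2 of the amino acid list held it but were not called in the pooled contrast. Holders among genes higher through siLRWD1-6 included ATF3, HERPUD1, CARS, IARS and MARS, which belong to these lists, so class and list shares overlap. The ER stress element, CCAAT and CCACG with 9 bases between them on either strand, was in 0.132% of tested promoters. It was in 3.25% (4 of 123) of unequal higher genes and in 25.0% (7 of 28) of the ER list. Those 4 unequal genes, CALR, HSP90B1, HSPA5 and SERP1, are members of the ER list, so the class and list shares are not separate observations. No promoter of the ER list held the former motif, and none of the ATF4 list or the amino acid list held the latter. Shown are promoters of 3 genes that siLRWD1-6 raised most or alone and of HSPA5, which each siRNA raised, with the motif in capitals. ASNS lies on the minus strand at chr7:97872359-97872658, CHAC1 on the plus strand at chr15:40953221-40953520, CARS on the minus strand at chr11:3057374-3057673 and HSPA5 on the minus strand at chr9:125241294-125241593. A match describes the letters and not a bound site.
ASNS: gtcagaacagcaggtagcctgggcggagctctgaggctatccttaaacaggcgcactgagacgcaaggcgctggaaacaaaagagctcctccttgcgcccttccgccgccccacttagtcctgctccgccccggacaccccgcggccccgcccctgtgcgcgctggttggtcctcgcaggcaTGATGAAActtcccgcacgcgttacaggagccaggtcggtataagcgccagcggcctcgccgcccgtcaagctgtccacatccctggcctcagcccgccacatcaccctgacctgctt
CHAC1: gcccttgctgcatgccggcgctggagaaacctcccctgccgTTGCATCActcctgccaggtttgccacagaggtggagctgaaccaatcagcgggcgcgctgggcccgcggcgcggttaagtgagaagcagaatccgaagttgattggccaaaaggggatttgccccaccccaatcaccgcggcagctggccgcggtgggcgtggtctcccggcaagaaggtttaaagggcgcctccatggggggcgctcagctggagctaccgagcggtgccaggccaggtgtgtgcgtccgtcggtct
CARS: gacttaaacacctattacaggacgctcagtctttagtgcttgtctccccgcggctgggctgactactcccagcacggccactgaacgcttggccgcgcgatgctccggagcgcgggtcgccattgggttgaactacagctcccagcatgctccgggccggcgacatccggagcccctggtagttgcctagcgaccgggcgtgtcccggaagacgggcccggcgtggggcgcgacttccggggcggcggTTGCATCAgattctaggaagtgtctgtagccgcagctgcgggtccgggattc
HSPA5: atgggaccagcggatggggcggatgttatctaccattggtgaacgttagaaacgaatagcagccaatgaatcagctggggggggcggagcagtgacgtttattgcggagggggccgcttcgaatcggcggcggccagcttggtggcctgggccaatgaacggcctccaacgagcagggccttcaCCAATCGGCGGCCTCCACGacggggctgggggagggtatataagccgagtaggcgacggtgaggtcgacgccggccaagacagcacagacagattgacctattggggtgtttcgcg

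Nuclear genes of oxidative phosphorylation, the mitochondrial chain that makes ATP, were called in one direction, with small medians. Of 50 genes, 24 were lower and 0 higher in the pooled contrast, against 14.0% of all genes lower, and the count was 23 without scrambled replicate 2. It was 17 without scrambled replicate 1 and 18 without siLRWD1-6 replicate 1. At an adjusted p under 0.01 it was 13, and with the 6 siRNA libraries as 1 group it was 1. The medians were -0.18 with siLRWD1-5 and -0.13 with siLRWD1-6. NDUFS3, COX6A1, CYC1, ATP5G1 and NDUFB8 were lower alike with all libraries in the fit, by 0.22 to 0.35 on the log2 scale. The number alike was 2 without scrambled replicate 1 and 1 at an adjusted p under 0.01. NDUFB10, a subunit of complex I, was driven by siLRWD1-5: it was at 84.8, 80.2 and 82.1 CPM with scrambled siRNA, at 30.9, 33.7 and 31.3 with siLRWD1-5 and at 65.8, 71.8 and 75.0 with siLRWD1-6. Its siLRWD1-6 libraries lay under the controls too, with an adjusted p of 0.052. COX4I1, SDHC and ATP5D had log2 fold changes of -1.09, -1.18 and -1.06 with siLRWD1-5 and of -0.01, -0.16 and 0.04 with siLRWD1-6.

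Genes known to be activated by EWS-FLI1 were more often lower than higher. Of 38 genes, 17 were lower and 3 higher, against 14.0% and 11.0% of all genes, and 10 were driven by siLRWD1-5, as were 11.2% of all genes. The medians were -0.51 with siLRWD1-5 and -0.09 with siLRWD1-6. With the 6 siRNA libraries as 1 group, 2 were lower and 0 higher. PRKCB, a protein kinase C gene that the fusion binds, was alike: it was at 192, 204 and 210 CPM with scrambled siRNA, at 118, 108 and 140 with siLRWD1-5 and at 135, 136 and 137 with siLRWD1-6. ID2, a dominant-negative helix-loop-helix protein, was the other alike member (log2 -0.46). Larger decreases driven by siLRWD1-5 were in KIT (log2 -2.23 against 0.33), CAV1 (-1.36 against -0.13) and STEAP2 (-1.32 against -0.29). Among genes known to be repressed by the fusion, 8 of 40 were higher and 3 lower, against 11.0% and 14.0% of all genes. The higher count was 17 without scrambled replicate 2 and 3 without scrambled replicate 3. COL5A1, a fibrillar collagen, rose alike, from 634, 446 and 589 CPM to 816, 858 and 863 with siLRWD1-5 and to 1026, 880.5 and 1012 with siLRWD1-6 (1.63-fold, adjusted p = 0.00074 by edgeR).

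Inflammatory targets of NF-kB rose with siLRWD1-5. Of 32 genes, 12 were higher and 1 lower in the pooled contrast, against 11.0% and 14.0% of all genes. Among these 13, 12 were driven by siLRWD1-5, as were 44.8% of all pooled calls. The medians were 1.09 with siLRWD1-5 and 0.09 with siLRWD1-6. With the 6 siRNA libraries as 1 group, 0 were higher. CXCL2, a neutrophil chemokine, was at 0.821, 1.78 and 0.694 CPM with scrambled siRNA, at 6.49, 13.0 and 7.39 with siLRWD1-5 and at 1.11, 2.19 and 1.27 with siLRWD1-6. Scrambled replicate 2 was above 2 of the siLRWD1-6 libraries. That library was higher than replicates 1 and 3 over the list by a median of 0.87, and without it 20 genes were higher, with medians of 1.44 and 0.35, whereas 8 were higher without scrambled replicate 3. ICAM1, an adhesion receptor, and CCL2, a monocyte chemokine, had log2 fold changes of 1.55 and 2.15 with siLRWD1-5 and of 0.31 and 0.30 with siLRWD1-6. Interferon and RNA-sensing genes gave 8 higher and 4 lower of 45, against 11.0% and 14.0% of all genes, and the higher count was 4 without scrambled replicate 1 and 5 without scrambled replicate 3 or siLRWD1-6 replicate 2. IRF1 rose unequally (log2 1.40 and 0.74), TAP1, a peptide transporter of antigen presentation, was driven by siLRWD1-5 (1.54 against -0.14), and IFIT2 and IFIT5 were lower alike, by 0.63 and 0.23 on the log2 scale.

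Extracellular matrix genes contributed 6 of the alike increases, where 2.54% of all genes were alike and higher. Of 51 genes, 17 were higher and 5 lower, against 11.0% and 14.0% of all genes. The number alike was 4 without scrambled replicate 2, when 7 were unequal. At an adjusted p under 0.01, 10 were higher, 3 of them alike. The genes LOXL2, COL5A1, HSPG2, SPARC, LAMC1 and COL4A2, which build or crosslink collagen and basement membrane, rose alike by log2 0.22 to 0.70 with all libraries in the fit. P4HA2, a collagen prolyl hydroxylase, rose with each siRNA but unequally: it was at 55.7, 57.6 and 53.2 CPM with scrambled siRNA, at 161, 174 and 163 with siLRWD1-5 and at 78.4, 69.4 and 85.8 with siLRWD1-6. SPP1, osteopontin, had the largest fitted decrease of the list, with a pooled log2 fold change of -2.33 (-2.60 and -2.06), and its class was not resolved. All 7 junction genes called in the pooled contrast, 4 higher and 3 lower of 26, were driven by siLRWD1-5, as were 44.8% of all pooled calls. The counts lie near the shares of all genes, and without scrambled replicate 2 the higher genes numbered 8, 1 of them alike and 1 unequal.

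Of 18 components of the small RNA and mRNA decay machinery, 4 were higher and 1 lower, against 11.0% and 14.0% of all genes, and the 4 increases were alike, as were 2.54% of all genes. Without scrambled replicate 2, 2 were alike and 2 unequal, and 3 were lower, and without scrambled replicate 3, 6 were higher. XRN1, the 5' to 3' exonuclease, was at 30.3, 28.4 and 31.5 CPM with scrambled siRNA, at 42.4, 41.3 and 40.6 with siLRWD1-5 and at 44.0, 43.8 and 44.7 with siLRWD1-6. TNRC6A, the GW182 partner of Argonaute proteins, was at 178, 150 and 193 CPM with scrambled siRNA, at 279, 262 and 254 with siLRWD1-5 and at 271, 257 and 271 with siLRWD1-6. Each was separate from its controls, by 1.42-fold (adjusted p = 0.00015 by edgeR) and 1.53-fold (adjusted p = 0.00019). DCP2, the decapping enzyme, rose 1.78-fold and LIN28B, which blocks let-7 maturation, rose 1.75-fold, both with scrambled replicate 2 as the lowest control. XPO5, the exporter of miRNA precursors, was driven by siLRWD1-5, with a log2 fold change of -0.40 against -0.11. All 9 libraries received an siRNA, so these values compare one siRNA with another and not with untransfected cells.

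**Figure D5:**
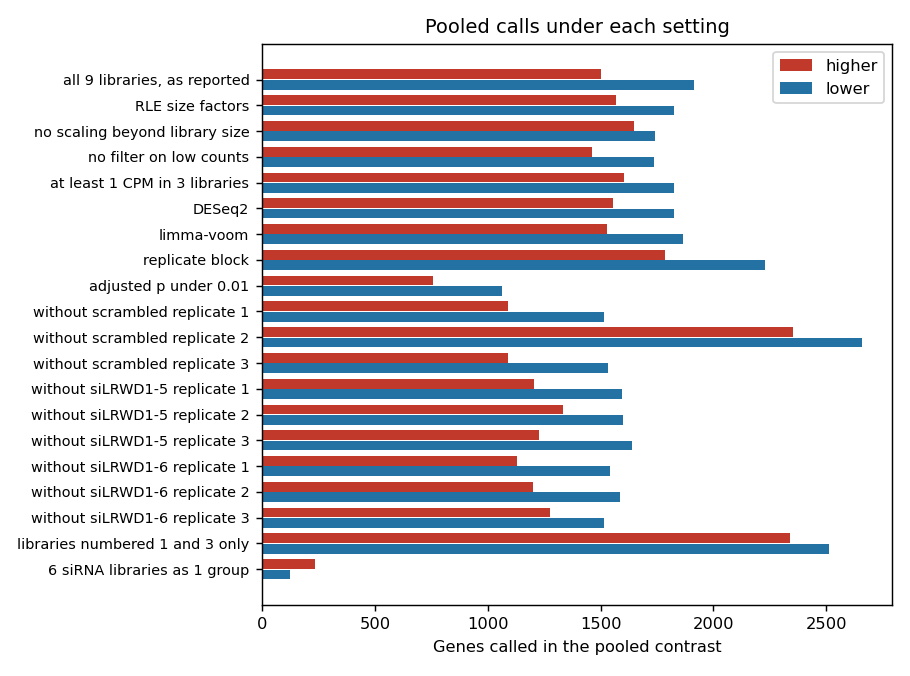
Number of genes called higher (red) and lower (blue) in the pooled contrast (horizontal axis) under each way of fitting the libraries (rows). The counts stay near 1500 and 1913 under other scalings, filters and tools, reach 2352 and 2660 without scrambled replicate 2, and drop to 235 and 125 when the 6 siRNA libraries form 1 group.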

How the data were processed

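RNA from 9 cultures of A673 cells was sequenced as TruSeq v2 libraries, a kit without strand marking, so sense and antisense transcripts that overlap share their reads. The authors deposited raw read counts per gene symbol for 23368 symbols, 4596 of them at 0 in all libraries. The submitters' processing notes name TopHat2 2.0.10, HTSeq 0.5.4p3, bcl2fastq 1.8.4 and the hg19 build; annotation, counting mode and strand setting are not stated there.

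Genes were kept with filterByExpr of edgeR 4.0.16 (R 4.3.3), which left 13648 genes with at least 99.92% of the counts of each library. Counts were scaled by TMM and fitted with the robust quasi-likelihood model, with group as the only term, all 9 libraries and Benjamini-Hochberg adjustment over all genes. The pooled contrast gave each siRNA a weight of 0.5. The other contrasts were each siRNA against scrambled and siLRWD1-6 against siLRWD1-5. Genes were alike when the pooled contrast and each siRNA were called in one direction and the siRNAs were not called different. They were unequal when the siRNAs were also called different, driven by one siRNA when that siRNA alone was called and differed from the other, opposed when the siRNAs were called in opposite directions, and otherwise unresolved. The fit was tested on simulated data.

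Named genes had a mean of at least 5 CPM and driving libraries that did not overlap scrambled. They were the 12 largest alike changes per direction, 5 unequal, 6 per driven class and 4 per direction of the opposed class, and in each of 25 lists up to 4 called members with the smallest p plus any other member with its values. A few genes that this rule would name are not reported here. The members and lists were chosen with earlier results of these data known. Alternatives were RLE size factors, no scaling, other count filters, DESeq2 1.42.0, limma-voom (limma 3.58.1), an adjusted p under 0.01, the replicate number as a block, leaving out libraries, and fitting the siRNA libraries as 1 group. The deposited counts are of another build than the promoters (RefSeq, GRCh38.p14) and 3' UTRs (GENCODE, GRCh38), which were matched by symbol. Python 3.11.15 was used for sequences.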

Additional observations from a re-analysis of the deposited data

Results flagged for a closer look

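The siRNAs differed from each other by a test of that difference (edgeR, siLRWD1-6 minus siLRWD1-5, log2) in each of the following genes. LRWD1 itself differed by -0.48.

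Genes that moved the same way by unequal amounts come first. Among those that rose, MATN2 differed by 0.65, PDCD4 by 0.4, DRAM1 by -0.5, SELM by -0.8 and EFNA1 by -1.06. Among those that fell, PLS3 differed by 0.56, UTS2 by 0.67, DLX2 by 0.37 and NCKAP1L by -0.29.

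For genes driven by siLRWD1-5, the differences of the increases were -4.2 in CLDN11, -2.68 in F11R, -2.3 in TNFAIP2, -2.25 in DSP, -1.65 in PTX3 and -1.45 in ACSS1. Those of the decreases were 2.98 in FAM45B, 2.49 in CMC2, 2.45 in GGCT, 2.31 in NGFR, 2.01 in ARL6IP6 and 1.11 in LOXHD1.

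For genes driven by siLRWD1-6, the increases differed by 2.36 in DDIT4, 2.24 in VLDLR, 1.74 in PCK2, 1.27 in STC2, 0.49 in CSGALNACT2 and 0.43 in ZNF43. The decreases differed by -2.34 in TIMP2, -1.99 in WSB2, -1.76 in LSMD1, -1.76 in NT5C3L, -1.58 in ANKH and -1.52 in CDCA7L.

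Opposed genes that were higher with siLRWD1-6 differed by 2.48 in NPR3, 2.4 in POLR3G, 1.82 in VEGFA and 1.58 in DDIT3. Those lower with siLRWD1-6 differed by -2.35 in LPPR3, -2.13 in ADORA2A, -1.95 in DDN and -1.79 in EPS8L1.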

How the results depend on the processing

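Pooled calls were 1568 higher and 1827 lower with RLE size factors, 1648 and 1743 with no scaling beyond library size, 1554 and 1825 with DESeq2, and 1530 and 1865 with limma-voom. At an adjusted p under 0.01 they were 759 and 1062, with 169 alike higher, 83 alike lower, 849 driven by siLRWD1-5, 146 driven by siLRWD1-6 and 131 opposed. Leaving out each library in turn gave 1089 to 2352 pooled higher, 1514 to 2660 pooled lower, 230 to 566 alike higher, 108 to 408 alike lower, 1183 to 1929 driven by siLRWD1-5, 206 to 511 driven by siLRWD1-6 and 196 to 685 opposed. The LRWD1 log2 fold change was -2.51 to -2.43. The highest counts were without scrambled replicate 2. With the libraries numbered 1 and 3 only, 2341 genes were pooled higher, 567 alike higher, 364 alike lower and 604 opposed. With the 6 siRNA libraries as 1 group, 235 were higher and 125 lower. That setting has no classes and counts differences between the siRNAs as spread; 26 named genes lost the call in it, all driven by one siRNA except NEDD4 and LRRC4. No result changed direction among 1227 values of named genes under the alternatives, and 29 were no longer past the threshold. Named genes were chosen for libraries that do not overlap scrambled, so a change of direction was unlikely from the start. Opposed genes were scored here on the difference between the siRNAs and not on the pooled change. PTX3 and CSGALNACT2 (adjusted p = 0.013 each by edgeR) did not pass 0.01. List counts differed by over 1.5 times from those reported in 201 of 912 values.

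Libraries carry a number within their group in the labels. Same-numbered libraries of different groups had correlated deviations over 0.1 in 7 of 9 pairs (0.05 to 0.37). Among pairs of other numbers, 2 of 18 were over 0.1 (-0.33 to 0.14). The labels call the numbers series and do not say whether a number marks a shared experiment. The main fit took no account of them, although same-numbered libraries shared part of their deviations. With the number as a replicate block, 1787 genes were higher and 2230 lower, 401 alike higher, 252 alike lower, 1747 driven by siLRWD1-5, 395 driven by siLRWD1-6 and 521 opposed; in the NF-kB list 19 genes were then higher, 5 of its members unequal and 1 alike.

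The test is limited by having 3 libraries per group. For genes near 1 CPM, such as CLDN11 with scrambled siRNA, counting error is large as well. Classes rest on thresholds: a difference between the siRNAs that misses the threshold does not show that they act alike.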

Other observations

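Cholesterol synthesis and uptake genes gave 10 higher and 2 lower of 34 in the pooled contrast. DHCR7, the last reductase of cholesterol synthesis, and INSIG1, a sterol sensor of the ER, rose alike, by log2 0.61 and 0.63. HMGCS1, an early enzyme of the pathway, was driven by siLRWD1-6 (1.01 against 0.04), whereas MSMO1, a sterol demethylase, was at -1.85 with siLRWD1-5 and 0.40 with siLRWD1-6. Scrambled replicate 2 was lower than the other controls over this list, by a median of -0.49, and without it 12 were higher and 5 lower. The higher count was 16 without scrambled replicate 1, 4 without scrambled replicate 3 and 2 at an adjusted p under 0.01. Hypoxia and glycolysis genes gave 6 higher and 7 lower of 32, with 4 and 11 without scrambled replicate 1 and 3 and 10 without scrambled replicate 3. CA12, a carbonic anhydrase, rose alike by log2 0.54, and the enolase ENO2 fell alike by 0.40 on the log2 scale, while VEGFA, HK2 and SLC2A1 were opposed.

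ETS factors downstream of growth factor signalling were among the decreases of the immediate early and MAPK list (2 higher, 7 lower of 34). ETV4 fell alike, from 24.0, 27.6 and 22.5 CPM with scrambled siRNA to 11.8, 14.7 and 15.4 with siLRWD1-5 and 13.0, 15.6 and 17.4 with siLRWD1-6, with no overlap with the controls (1.69-fold lower, adjusted p = 0.00071 by edgeR). ETV5 and ETV1 were driven by siLRWD1-5, at log2 -1.56 and -1.19 against 0.18 and -0.14. Without scrambled replicate 2, 11 genes were higher and 5 lower in this list, so the balance of its counts turned with that library, and without scrambled replicate 3 the counts were 0 and 5. Of 25 p53 targets, 3 were higher and 2 lower, or 5 and 4 without scrambled replicate 2. BBC3, the apoptosis activator PUMA, rose alike by 2.07-fold from 2.91, 1.62 and 2.31 CPM, and MDM2, FAS and GDF15 were opposed. Lysosome and autophagy genes gave 4 higher and 4 lower of 43, which became 14 and 4 without scrambled replicate 2 and 2 and 6 without scrambled replicate 3. ATP6V0D1, a subunit of the proton pump, was at 119, 148 and 113 CPM with scrambled siRNA, at 33.2, 33.9 and 41.2 with siLRWD1-5 and at 78.5, 77.4 and 80.1 with siLRWD1-6, 3 separate groups. WIPI1, an early autophagy factor, rose by log2 1.41 and 0.63. Ribosome biogenesis genes gave 2 higher and 6 lower of 45, none of them alike, and the higher count ran from 0 without scrambled replicate 1 to 4 without scrambled replicate 2. G1 cell cycle genes gave 1 higher and 5 lower of 27, which became 3 and 14 without scrambled replicate 2 and 0 and 3 without scrambled replicate 1. All these shares stand against 11.0% higher and 14.0% lower over all genes. The list of other cell types had 7 tested genes and no pooled call (edgeR).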
